A study of Mus musculus with 14 samples.

Results

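The WAVE regulatory complex was described across 4 groups of mouse samples, with Cyfip2 as its leading member. The 10 genes considered were Cyfip2 and its paralogue Cyfip1, the WAVE proteins Wasf1, Wasf2 and Wasf3, the scaffold genes Nckap1 and Nckap1l, the Abi-family genes Abi1 and Abi2, and the small subunit Brk1. Cyfip2 was chosen by its intensity values in these same arrays, in which it was lower in the muscle of mutant mice. The other 9 genes were chosen because they encode partners or paralogues in the complex, although earlier results of these data were known. Every probe set that the array annotation gives to 1 of these symbols was used. That gave 20 probe sets for 9 of the 10 genes, out of 45037 probe sets and 18193 named genes in all. None of the 20 carried a second symbol. No probe set is listed under Cyfip1 in the annotation used here, so its level was not analysed here. RefSeq places Cyfip1 on chromosome 7 and Cyfip2 on chromosome 11.

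Branched actin networks are built by the Arp2/3 complex, which starts a new filament on the side of an existing one. WAVE proteins switch Arp2/3 on, but in resting cells they are held inactive within a complex of a CYFIP, a NCKAP, a WAVE, an ABI and a BRK1 subunit. The GTPase Rac binds the CYFIP subunit and releases the WAVE activity, which drives membrane protrusion. In neurons the complex shapes dendritic spines and growth cones. CYFIP proteins also bind the fragile X protein FMRP and take part in the control of translation.

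The tested mice, called PWS-IC del, carried a deletion of the Prader-Willi syndrome imprinting centre, the element that keeps a cluster of paternally expressed genes on chromosome 7 active. Their controls were wild-type littermates matched for age, and both genotypes were FVB by B6 F1 hybrids. Sex and exact age are not given in the labels. Total RNA was taken from brain and from the vastus lateralis, a thigh muscle, and 14 Affymetrix mouse genome arrays were used, 1 per sample. Each tissue had 3 PWS-IC del and 4 wild-type arrays, which the titles call biological replicas, so the p-values measure the spread between such samples.

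Levels are given as log2(intensity + 16), on which a probe set with no signal has the value 4. Unless stated otherwise, a difference is the PWS-IC del mean minus the wild-type mean of these log2 values, which understates the change of dim probe sets. A probe set was called when limma's moderated test, adjusted by Benjamini-Hochberg over all 45037 probe sets, gave an adjusted p below 0.05. Between genotypes, 0.0622% of all probe sets were called in brain and 0.0644% in muscle. An unadjusted p below 0.05 was found for 2878 of the 45037 in brain and for 4657 in muscle. Counts over marker lists have these as their background. In brain, PWS-IC del arrays had 7.71 to 8.29 for Snhg14, a long RNA of the imprinted cluster, and wild-type arrays had 11.26 to 12.01. In muscle, the same gene had 5.92 to 6.23 in PWS-IC del arrays and 8.16 to 8.41 in wild-type arrays, so every array fitted its label. The 10 neuron markers were all higher in wild-type brain than in wild-type muscle, and the 8 skeletal muscle markers were all lower. Array medians were 142.0 to 170.1 intensity units in brain and 88.7 to 96.4 in muscle. Brain wild-type 1 and brain wild-type 2 stood apart from the other 5 brain arrays, with scores of 93.2 and 35.0 on the first principal component against -37.1 to -12.4, and brain results are therefore also given without both.

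Cyfip2 encodes the CYFIP subunit to which Rac binds. The RefSeq promoter of Cyfip2 is shown because this is the gene whose level differed most among the members between the muscle groups. The window runs from 250 bases before the annotated start to 50 after it, on the minus strand at chr11:46312309-46312608 of GRCm38.p6. The promoters of Wasf1 (plus strand, chr10:40883284-40883583) and Wasf2 (plus strand, chr4:133130383-133130682) are shown beside it, since these members had the most contrasting tissue patterns. Capitals mark the GC box GGGCGG on either strand.
Cyfip2: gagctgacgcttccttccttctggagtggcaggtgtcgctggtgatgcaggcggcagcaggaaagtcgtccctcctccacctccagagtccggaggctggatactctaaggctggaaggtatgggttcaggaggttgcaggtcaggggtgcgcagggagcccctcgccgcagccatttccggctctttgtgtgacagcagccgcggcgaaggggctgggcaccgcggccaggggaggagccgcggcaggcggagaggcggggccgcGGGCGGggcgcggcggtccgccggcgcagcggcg
Wasf1: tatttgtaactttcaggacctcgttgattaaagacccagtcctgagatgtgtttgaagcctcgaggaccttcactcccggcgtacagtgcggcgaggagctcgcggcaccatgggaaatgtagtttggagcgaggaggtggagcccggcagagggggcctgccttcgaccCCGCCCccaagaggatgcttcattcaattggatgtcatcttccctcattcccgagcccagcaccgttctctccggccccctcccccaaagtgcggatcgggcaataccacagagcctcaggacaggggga
Wasf2: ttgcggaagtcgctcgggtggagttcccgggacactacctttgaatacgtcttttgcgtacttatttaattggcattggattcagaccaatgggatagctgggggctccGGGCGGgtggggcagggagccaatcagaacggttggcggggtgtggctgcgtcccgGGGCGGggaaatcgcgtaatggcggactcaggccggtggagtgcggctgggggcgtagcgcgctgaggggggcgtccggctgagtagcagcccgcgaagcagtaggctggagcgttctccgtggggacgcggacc

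The Cyfip2 window held 1 GC box, that of Wasf1 held 1 and that of Wasf2 held 2. A GC box was present in 35.7% of the 32851 promoters in the same table. Cyfip2 had 29 CpG dinucleotides and 70.7% G and C. Wasf2 also had 29 CpG dinucleotides, with 64.3% G and C, whereas Wasf1 had 17 and 59%. All 3 were above the median promoter, which had 7 CpG dinucleotides and 52.7% G and C. The letters CCAAT occurred on either strand 4 times in Wasf2, 1 time in Wasf1 and 0 times in Cyfip2, and they occurred in 37.4% of all promoters. The TATA box TATAAA, the E-box CACGTG, the D-box TTANGTAA, the ERR half-site AAGGTCA, the AP-1 site TGANTCA and the CRE TGACGTCA were also searched on both strands, and none of their letters occurred in these 3 windows. These motifs occurred in 13.6%, 7.15%, 2.32%, 4.72%, 7.81% and 1.79% of all promoters in the order named. The counts describe the windows only. Of the 10 members, 6 had a promoter in the table.

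The muscle of PWS-IC del mice had less Cyfip2 signal than wild-type muscle on both of its brighter probe sets, in every array. This is the difference for which the gene was chosen, so it is given as a description with no test. For 1428347_at, the brightest of the 3 probe sets, the intensities were 77.1, 74.3 and 68.5 in PWS-IC del muscle and 267.3, 458.6, 289.7 and 285.0 in wild-type muscle. The PWS-IC del arrays lay within 0.14 log2 units of each other, and 1.60 units separated the highest of them from the lowest wild-type array. Its level was 6.48 ± 0.07 in PWS-IC del muscle (SD, n = 3) and 8.38 ± 0.34 in wild-type muscle (SD, n = 4), a difference of -1.90. Wild-type muscle was 3.74-fold higher on that scale and 4.44-fold higher as a ratio of mean intensities. In bulk tissue, fewer cells that express a gene and less RNA per cell cannot be told apart.

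The probe set 1449273_at had intensities of 48.6, 48.6 and 39.3 in PWS-IC del muscle and 96.8, 150.5, 139.9 and 125.7 in wild-type muscle. Again no PWS-IC del array reached the lowest wild-type array, and the gap was 0.80 log2 units. Its level was 5.94 ± 0.13 in PWS-IC del muscle (SD, n = 3) and 7.16 ± 0.25 in wild-type muscle (SD, n = 4), a difference of -1.22. As a ratio of mean intensities, wild-type muscle was 2.82-fold higher. The probe set 1442167_at was close to the floor of the scale, with intensities of 12.2, 4.43 and 6.74 in PWS-IC del muscle and 11.4, 12.4, 8.64 and 19.5 in wild-type muscle. Its groups overlapped, and the difference was -0.28. Thus 2 of the 3 Cyfip2 probe sets had groups that did not overlap, with PWS-IC del lower, as did 6.06% of all probe sets in muscle. Among the wild-type arrays, replicate 2 was the highest on the 2 brighter probe sets, and without any 1 array the difference of 1428347_at ranged from -1.98 to -1.73.

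**Figure D1:**
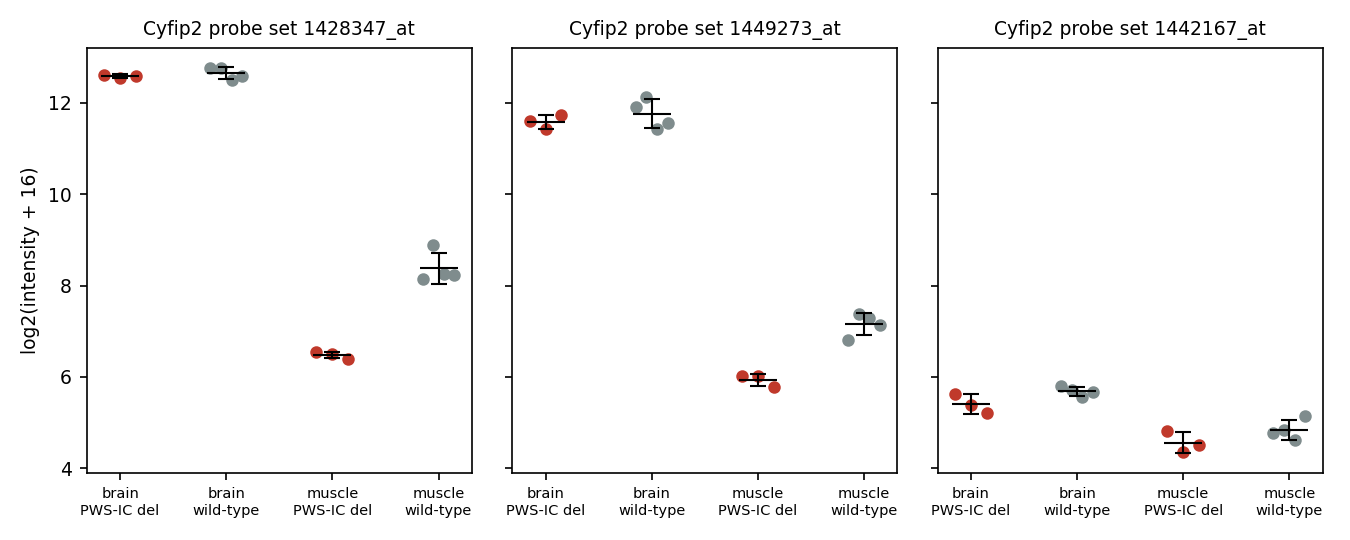
Level of the 3 Cyfip2 probe sets in each of the 14 arrays, as log2(intensity + 16), for both genotypes in each tissue. Points are arrays, horizontal ticks are group means and bars are the SD. In muscle the 3 PWS-IC del arrays lie below the 4 wild-type arrays for 1428347_at and 1449273_at, whereas the groups overlap for 1442167_at and in brain.

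In brain, Cyfip2 was bright in both genotypes and its difference did not pass the test. The levels of 1428347_at were 12.62, 12.54 and 12.59 in PWS-IC del brain and 12.77, 12.76, 12.51 and 12.59 in wild-type brain. The groups overlapped, and the difference was -0.07 ± 0.11 (SE), with a 95% interval from -0.33 to 0.19 and a limma adjusted p of 0.796. For 1449273_at the levels were 11.60, 11.43 and 11.74 in PWS-IC del brain and 11.92, 12.13, 11.44 and 11.57 in wild-type brain. Its difference was -0.18, with an interval from -0.59 to 0.24 and an adjusted p of 0.707. For 1442167_at the difference was -0.28, with an interval from -0.59 to 0.02 and an adjusted p of 0.644. Wild-type 1 and 2, which stood apart, were the 2 highest brain arrays on all 3 probe sets, and without them 1428347_at differed by 0.04 and 1449273_at by 0.08.

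The difference between the muscle and brain effects was -1.83 for 1428347_at, -1.04 for 1449273_at and -0.00 for 1442167_at. These values contain the muscle contrast that chose the gene and carry no p here. Across the 4 groups, 1428347_at was highest in brain, with 12.58 ± 0.04 in PWS-IC del brain (SD, n = 3) and 12.66 ± 0.13 in wild-type brain (SD, n = 4), which did not differ beyond their spread. PWS-IC del muscle was lowest at 6.48, below wild-type muscle at 8.38. PWS-IC del brain exceeded PWS-IC del muscle by 6.10 log2 units, and wild-type brain exceeded wild-type muscle by 4.28.

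The partners of Cyfip2 in muscle were tested next, to ask whether the rest of the complex differed with it. None of their 17 probe sets was called by limma, against 0.0644% of all probe sets in this comparison, and 0 had an unadjusted p below 0.05. Their differences ranged from -0.28 to 0.27 with a median of -0.02, and the median over all probe sets was -0.00. The adjusted p-values ranged from 0.579 to 0.985, and in none of the 17 did the groups separate, as they did in 10.6% of all probe sets. For comparison, none of the partners' 95% intervals extended below -0.88. Dim probe sets limit this, since Wasf3 1425061_at averaged 5.04 and Abi2 1458053_at 5.24 in wild-type muscle, near the floor of 4. On such probe sets the scale itself allows little fall.

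Nckap1, the scaffold that binds CYFIP directly, had 11.06, 11.03 and 10.93 in PWS-IC del muscle and 11.17, 11.30, 11.00 and 11.11 in wild-type muscle. The groups overlapped, and the difference was -0.14 with an interval from -0.37 to 0.09 (adjusted p = 0.665). Nckap1l, its counterpart in blood cells, had on 1428786_at 6.85, 6.97 and 6.82 in PWS-IC del muscle and 6.58, 6.96, 6.24 and 6.65 in wild-type muscle. The PWS-IC del arrays lay in the upper part of the wild-type range or just above it. The difference was 0.27, with an interval from -0.08 to 0.63 and a limma adjusted p of 0.589. The other Nckap1l probe set, 1428787_at, differed by 0.26 (adjusted p = 0.641). Of 14 leukocyte and macrophage markers, 13 had positive differences in muscle, and limma called 0, with 5 at an unadjusted p below 0.05. Their summed intensity was 5562 to 7938 in PWS-IC del muscle and 5110 to 6441 in wild-type muscle. Their part in the Nckap1l values was not tested.

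Wasf1, the WAVE protein known best from brain, varied widely among the wild-type muscle arrays. It had 6.19, 6.52 and 6.65 in PWS-IC del muscle and 5.58, 7.49, 5.86 and 6.75 in wild-type muscle. The wild-type arrays alone spanned the whole range of the PWS-IC del arrays, and the difference was 0.04 with an interval from -0.88 to 0.95 (adjusted p = 0.985). A Wasf1 change inside that interval was not detectable with these arrays. The summed intensity of the 10 neuron markers was 418, 465 and 696 in PWS-IC del muscle and 379, 1966, 535 and 936 in wild-type muscle, and within each group Wasf1 had the same order of arrays. All 10 neuron markers had negative differences in muscle, with a median of -0.37, and limma called 0, with 0 at an unadjusted p below 0.05. The levels of Cyfip2 1428347_at, in the array order of the neuron sums, were 6.54, 6.50 and 6.40 in PWS-IC del muscle. In wild-type muscle they were 8.15, 8.89, 8.26 and 8.23. Wild-type 2 had the highest sum and the highest Cyfip2 level of the 7 muscle arrays. Within PWS-IC del muscle the Cyfip2 level fell as the sum rose. PWS-IC del 3 had a higher sum than wild-type 1 and 3 and the lowest Cyfip2 level. The part of nerve content in the Wasf1 and Cyfip2 values was not tested. The neuron marker Snap25 stood at 4.00, the floor of the scale, in its lowest wild-type muscle array.

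Wasf2, the widely expressed WAVE protein, had on 1454673_at 10.30, 10.31 and 10.06 in PWS-IC del muscle and 10.36, 10.52, 10.20 and 10.12 in wild-type muscle. Its groups overlapped, with differences of -0.08 on this probe set and -0.10 on 1438683_at. Both Wasf3 probe sets were dim in muscle, with group means from 5.04 to 5.81, and their differences were 0.13 and 0.01. The 2 brighter Abi1 probe sets, 1423177_a_at and 1450890_a_at, differed by 0.02 and 0.07, and the 2 dimmer ones, 1438506_s_at and 1423178_at, by -0.13 and -0.18. ABI proteins link the complex to kinases and adaptors.

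Abi2 had the most negative difference among the partners. On 1436984_at it had 8.23, 8.16 and 7.88 in PWS-IC del muscle and 8.36, 8.76, 8.21 and 8.13 in wild-type muscle. The lowest array was a PWS-IC del array and the highest was wild-type 2, but the groups overlapped. The difference was -0.28 with an interval from -0.65 to 0.09 (adjusted p = 0.600), and the other Abi2 probe sets differed by -0.06 and -0.21. Brk1, the smallest subunit, differed by -0.02 on 1423188_a_at and 0.10 on 1423189_at. Its levels on 1423188_a_at were 10.69, 10.65 and 10.50 in PWS-IC del muscle and 10.63, 10.79, 10.55 and 10.55 in wild-type muscle, which overlapped throughout.

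**Figure D2:**
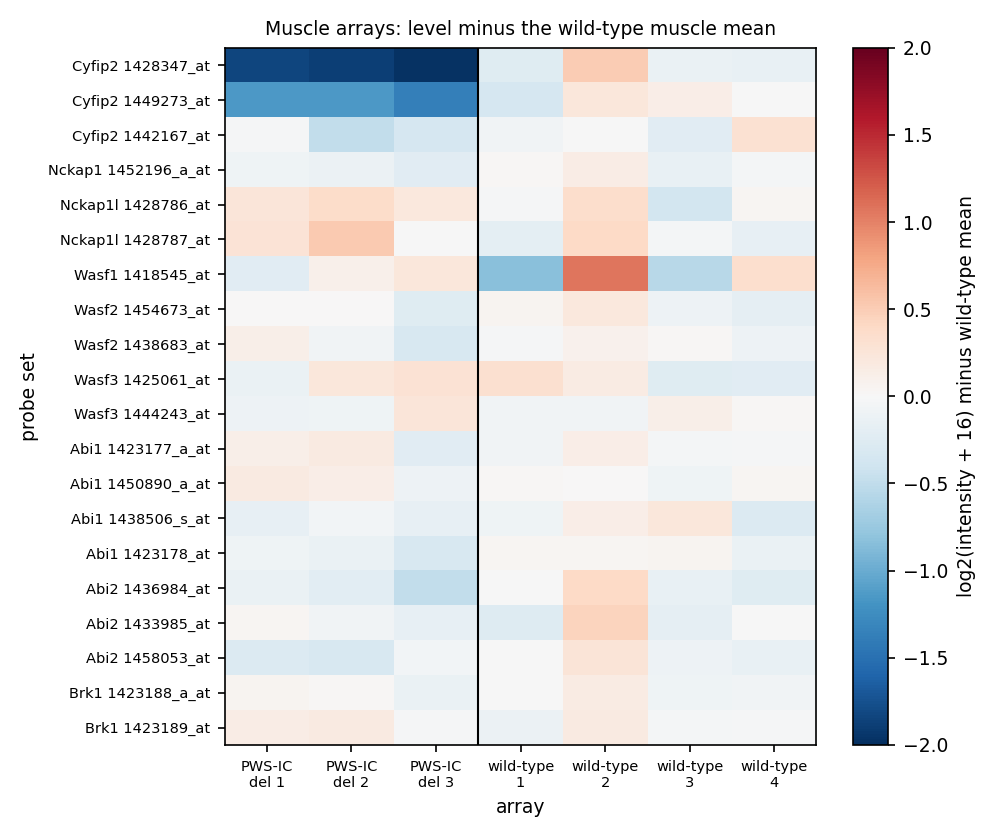
Each of the 20 probe sets in each of the 7 muscle arrays, as the difference in log2(intensity + 16) from the wild-type mean of that probe set. The 2 brighter Cyfip2 probe sets are low in all 3 PWS-IC del arrays, and Wasf1 varies among the wild-type arrays from 5.58 to 7.49.

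In brain, none of the 20 member probe sets was called by limma, against 0.0622% of all probe sets, and 1 had an unadjusted p below 0.05. The differences ranged from -0.42 to 0.38 with a median of -0.02, and adjusted p-values ranged from 0.644 to 0.988. Without wild-type 1 and 2 the count called was again 0, with 0 at an unadjusted p below 0.05. The probe set with the low unadjusted p was Abi1 1438506_s_at. It had 9.50, 9.54 and 9.66 in PWS-IC del brain and 9.16, 9.03, 9.13 and 9.42 in wild-type brain. Every PWS-IC del array was above every wild-type array, which held for this 1 of the 20 probe sets and for 3.69% of all probe sets. The difference was 0.38 with an interval from 0.09 to 0.67 and an adjusted p of 0.644. It was 0.29 without wild-type 1 and 2.

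The dimmer Abi1 probe set 1423178_at differed by 0.34 in brain (adjusted p = 0.644), with 7.99, 7.84 and 7.96 in PWS-IC del brain and 7.37, 7.42, 7.63 and 7.93 in wild-type brain. The 2 brighter Abi1 probe sets differed by 0.13 and 0.15. Without wild-type 1 and 2, 1423178_at differed by 0.15 and the 2 brighter ones by 0.03 and -0.03, so the 4 probe sets then no longer shared a sign. The most negative value was that of Abi2 1458053_at at -0.42, with an interval from -1.30 to 0.46, and it was 0.15 without wild-type 1 and 2. It had 7.89, 7.80 and 7.63 in PWS-IC del brain and 9.28, 8.25, 7.86 and 7.39 in wild-type brain, so the PWS-IC del arrays lay inside the wild-type range. Markers of brain regions and of other tissues were read beside these values. All 8 striatal markers had negative differences (median -0.61) and all 8 cerebellar markers had positive ones (median 0.80), and limma called 0 of either, with 0 and 1 at an unadjusted p below 0.05. The striatal markers summed to 6960 to 12982 intensity units in PWS-IC del brain and 7263 to 27569 in wild-type brain. The cerebellar markers summed to 13772, 140026 and 12097 in PWS-IC del brain and 10529 to 22126 in wild-type brain, so 1 PWS-IC del array carried the high sum. Most of that sum came from Pcp2, at 16.76 log2 units, whereas Calb1, the next highest of these markers in PWS-IC del brain, reached 12.90. All 8 skeletal muscle markers had negative differences in brain (median -1.53), as had 9 of 10 fast fibre markers (median -1.80) and all 11 endothelial markers (median -0.31). limma called 0 of these, with 2, 3 and 5 at an unadjusted p below 0.05 in the order named. Of all 45037 probe sets, 2878 had such a p in brain. The skeletal muscle and fast fibre lists share Myh4, Mylpf, Tnnt3 and Actn3, so their counts are not separate. Pvalb, the fast fibre marker with a positive difference, is also on the cerebellar list. The skeletal muscle sum was 1242, 1200 and 1446 in PWS-IC del brain and 8887, 1637, 5881 and 1364 in wild-type brain, so wild-type 1 and 3 stood above the other brain arrays. Their part in the brain values of the complex was not tested.

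The same contrast was also compared between tissues. None of the 17 partner probe sets was called for a difference between the muscle and brain effects, against 0.0644% of all probe sets. Both probe sets with an unadjusted p below 0.05 were of Abi1, with values of -0.51 for 1438506_s_at and -0.52 for 1423178_at and a limma adjusted p of 0.874 for each. Without wild-type 1 and 2 of brain, 0 of the 17 had an unadjusted p below 0.05.

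**Figure D3:**
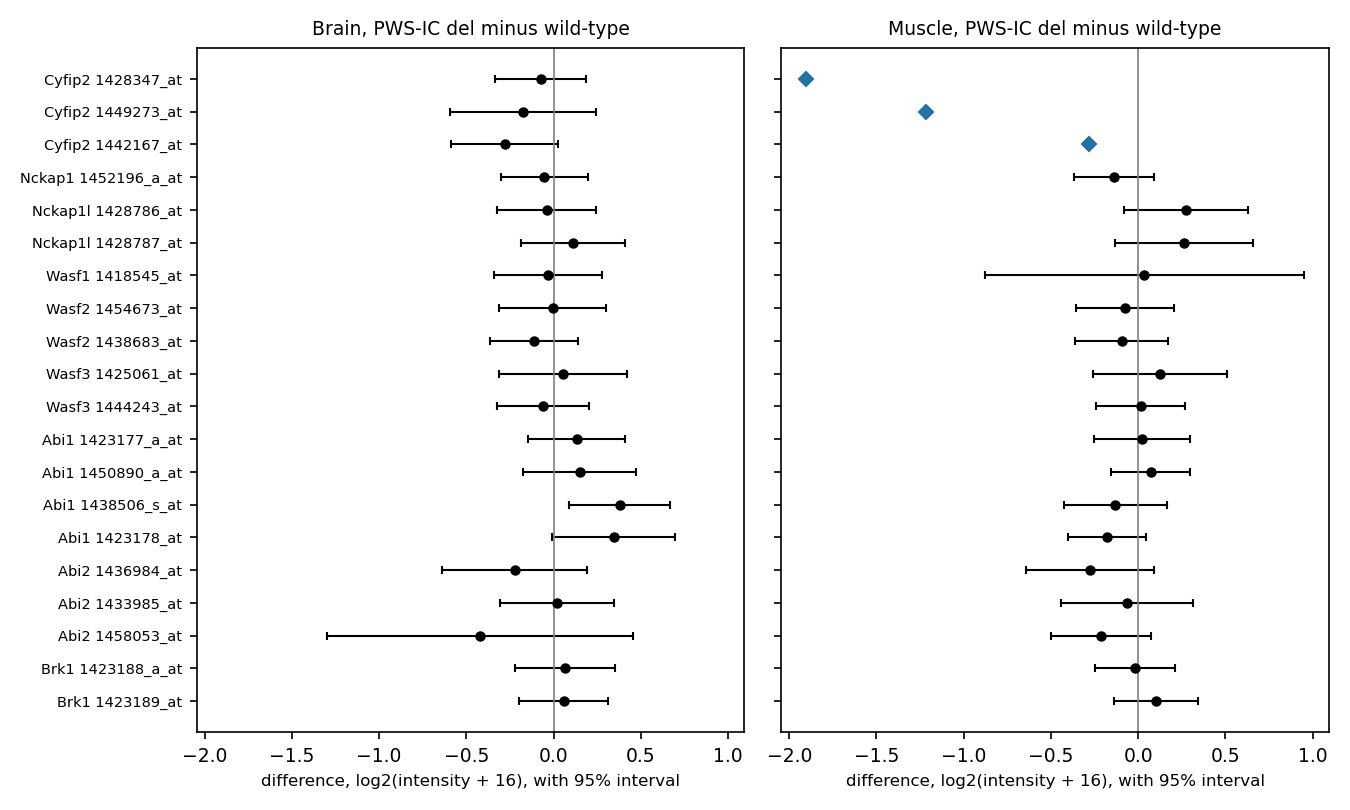
Difference PWS-IC del minus wild-type for the 20 probe sets in brain (left) and muscle (right), in log2(intensity + 16) units; points are estimates and lines are 95% intervals from limma. Blue diamonds without lines are the Cyfip2 values in muscle, which chose the gene, at -1.90, -1.22 and -0.28; the intervals of the partners in muscle all include 0.

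Wild-type brain was then set against wild-type muscle, to show in which tissue each subunit was higher. Of the 20 probe sets, 18 were higher in brain and 1 was lower by limma, against 53.5% and 15.4% of all probe sets, and both counts were the same without wild-type 1 and 2 of brain. The median difference, brain minus muscle, was 1.92 over the members and 0.43 over all probe sets. Scaling shifts this background, since the median over all probe sets was -0.11 after quantile normalization and -0.24 after median centring. All calls then split into 12320 higher and 16339 lower under quantile normalization, and into 11287 and 19245 under centring, against 24099 higher and 6948 lower without either. The members split into 17 higher and 2 lower under quantile normalization, and into 16 and 2 under centring.

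Wasf1 had the largest tissue difference of the 20 probe sets, 6.18 ± 0.36 log2 units (SE), with a mean of 12.60 in wild-type brain and 6.42 in wild-type muscle. Cyfip2 differed by 4.28 ± 0.17 on 1428347_at and by 4.61 on 1449273_at, with a limma adjusted p of 1.04e-08 for the first. Abi2 differed by 3.93, 4.03 and 2.95 on its 3 probe sets. These 6 probe sets had the largest tissue differences of the 20, as they also had under both other scalings. Without wild-type 1 and 2 of brain, Abi2 1458053_at at 2.38 was below Abi1 1438506_s_at at 2.73 and slightly below Wasf3 1425061_at, so the order of these did not hold. The dim Cyfip2 probe set 1442167_at differed by 0.84, and by 0.16 under centring, where it was not called. Abi1 differed by 1.31 to 2.64 over its 4 probe sets, Nckap1 by 1.85, and both Brk1 probe sets by 1.52. Nckap1l differed by 1.28 and 1.09, and Wasf3 by 2.21 and 0.75.

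Wasf2 was the exception. Its probe set 1454673_at averaged 9.59 in wild-type brain and 10.30 in wild-type muscle, and it was lower in brain by 0.71 (difference -0.71, adjusted p = 4.58e-04). The other Wasf2 probe set, 1438683_at, differed by 0.07 (adjusted p = 0.496) and was called lower in brain under quantile normalization (-0.61) and median centring (-0.60). The dim Wasf3 probe set 1444243_at was no longer called higher under either scaling, at 0.20 and 0.08. Between PWS-IC del brain and PWS-IC del muscle, Wasf1 differed by 6.11 and Wasf2 1454673_at by -0.64.

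**Figure D4:**
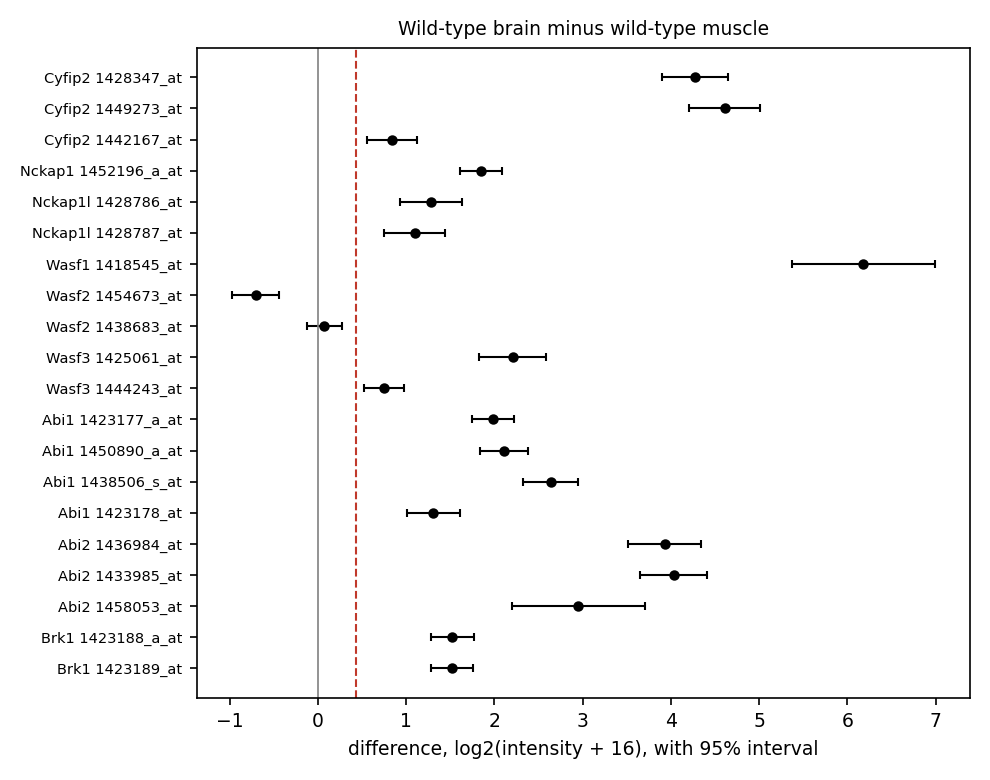
Wild-type brain minus wild-type muscle for the 20 probe sets, in log2(intensity + 16) units; points are limma estimates, lines are 95% intervals, and the dashed line is the median of all probe sets, 0.43. Wasf1, Cyfip2 and Abi2 lie farthest to the brain side, and Wasf2 1454673_at alone lies below 0.

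The genes around Cyfip2 on chromosome 11 were examined, to show whether its muscle difference extended to them. In RefSeq order, 5 protein-coding genes on each side and Fndc9, which lies inside the span of Cyfip2, made 11 neighbours, of which 10 had a probe set. None of the 10 was called by limma in muscle, against 0.055% of all genes, and their differences ranged from -0.61 to 0.28. Of the 10, 1 had an unadjusted p below 0.05, as had 4657 of all 45037 probe sets. Fndc9 averaged 5.02 in PWS-IC del muscle and 5.04 in wild-type muscle, a difference of -0.02 (adjusted p = 0.971). Fam71b, the second gene beyond Cyfip2, had the lowest value at -0.61, with an interval from -0.94 to -0.29 and an adjusted p of 0.218. Nipal4, the nearest gene on the other side, differed by 0.09 (adjusted p = 0.859).

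**Figure D5:**
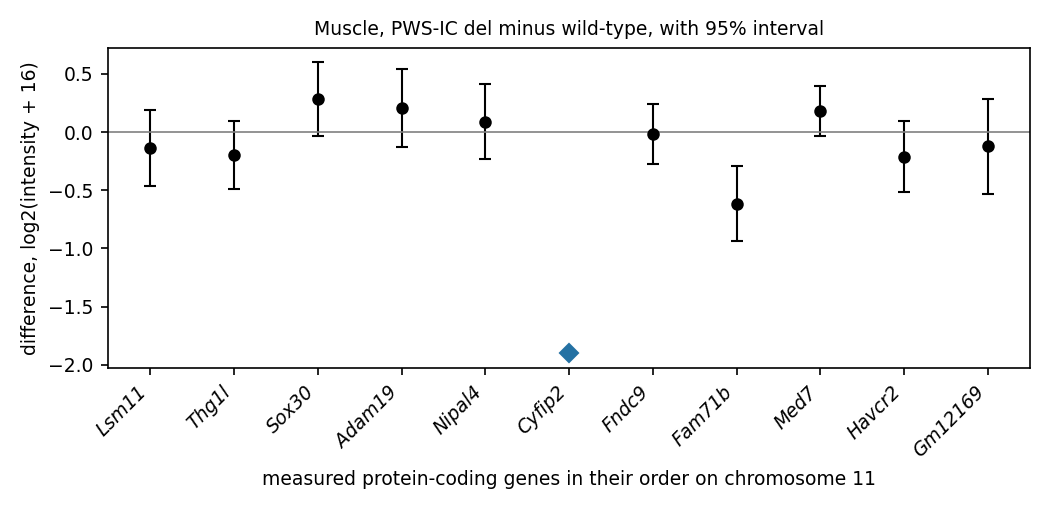
Muscle difference, PWS-IC del minus wild-type, in log2(intensity + 16) units for the genes around Cyfip2 in their order along chromosome 11; points are limma estimates and lines 95% intervals. Cyfip2 (blue diamond, no line, -1.90) stands below its 10 measured neighbours, which range from -0.61 to 0.28.

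Genes that act with or after the complex were read from 5 lists holding 68 names, of which 60 were measured, each by its brightest probe set. None of the 60 was called by limma in either tissue, against 0.055% of all genes in brain and 0.055% in muscle. Of the 60, 0 in brain and 4 in muscle had an unadjusted p below 0.05. Over all 45037 probe sets, 2878 in brain and 4657 in muscle had such a p.

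The Arp2/3 complex itself had 6 of its 10 genes measured, and its medians were 0.16 in brain and 0.04 in muscle, against 0.03 and 0.01 over all genes. Its subunit gene Arpc1a differed by 0.26 in muscle (adjusted p = 0.604). The list of Arp2/3 regulators, 15 of 16 measured, had a median of 0.05 in muscle, and the blood-cell nucleation factor Was differed by -0.24 (adjusted p = 0.496). For the actin turnover list, 16 of 17 measured, the muscle median was 0.08 and the lowest adjusted p was 0.610, that of the filament-capping gene Capza1 at 0.17.

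The adaptors that bind WAVE held 3 of the 4 muscle genes with a low unadjusted p, out of 14 measured of 16. Enah, an Ena/VASP protein that lengthens actin filaments, averaged 9.47 in PWS-IC del muscle and 10.08 in wild-type muscle, a difference of -0.61 with an adjusted p of 0.159. Its relative Vasp had a difference of 0.36 (adjusted p = 0.391), and Nhsl1 one of 0.43 (adjusted p = 0.431). The fourth gene was Eif4ebp2 on the list of CYFIP partners in translation, a repressor of the cap-binding protein eIF4E. It averaged 9.18 in PWS-IC del muscle and 9.94 in wild-type muscle, a difference of -0.76 with an adjusted p of 0.268. On that list, Fmr1 differed by 0.24 in brain (adjusted p = 0.644).

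Between the wild-type tissues, 38 of the 60 genes were higher in brain and 10 were lower, against 55.8% and 18.7% of all genes. The adaptors had 12 higher and 1 lower of 14, among them the protocadherin genes Pcdh10 at 4.92 and Pcdh17 at 5.07. The translation partners had 3 higher and 4 lower of 9, and Fxr1, a relative of Fmr1, was lower in brain (difference -2.16). The list counts were not repeated under quantile normalization or median centring. Under both scalings, more of all probe sets were called lower in brain than higher.

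Genes whose pattern over the 7 muscle arrays was most like that of Cyfip2 1428347_at were ranked by Pearson's r among 13644 genes, as a description. The arrays share the 2 genotype groups, so the group difference sets much of every r. The most alike were Rassf9 at 0.993, Agrn at 0.984, Mapk8ip3 at 0.984, Col24a1 at 0.983 and ND5 at 0.981. Agrn encodes agrin, which organises the neuromuscular junction, and its muscle difference was -0.44. Rassf9 differed by -0.75 and Col24a1, a fibrillar collagen, by -0.91. The most opposed were Maneal at -0.989, Ptpmt1 at -0.988, Dcun1d5 at -0.982, Mrpl13 at -0.980 and Mrps25 at -0.979. Ptpmt1 encodes a mitochondrial phosphatase and the Mrp genes encode mitochondrial ribosomal proteins, with differences of 0.24 for Ptpmt1, 0.23 for Mrpl13 and 0.18 for Mrps25. In all, 145 genes had an r above 0.9 and 113 had one below -0.9. The second Cyfip2 probe set, 1449273_at, had an r of 0.980 with the first. Among the partners, Nckap1 at 0.734 and Abi2 at 0.699 were nearest and Nckap1l at -0.404 was farthest.

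Other cell and fibre types were read beside the Cyfip2 difference. The summed intensity of 12 slow and oxidative fibre markers was 49965, 28919 and 30851 in PWS-IC del muscle and 50186, 25888, 61129 and 57477 in wild-type muscle. limma called 0 of the 12, with 5 at an unadjusted p below 0.05, against 4657 of all 45037 probe sets in muscle. Myh2, the myosin of fast oxidative fibres, had 12.20 to 12.81 in PWS-IC del muscle and 12.92 to 13.80 in wild-type muscle, and Casq2, a calcium store protein of slow fibres, had 8.29 to 8.97 in PWS-IC del muscle and 9.22 to 9.85 in wild-type muscle. Neither gene's groups overlapped, nor did those of Pln, Mb and Fhl2, with PWS-IC del lower in each. Such a separation held for 6.06% of all probe sets in muscle. Of the 12 differences, 7 were negative and 5 were positive. The positive ones were those of Myh7, Myl2, Tnnc1, Tnni1 and Tnnt1, whose groups overlapped. In the array order of the slow and oxidative sums, Cyfip2 1428347_at had 6.54, 6.50 and 6.40 in PWS-IC del muscle. Its levels in wild-type muscle were 8.15, 8.89, 8.26 and 8.23. The 10 fast fibre markers summed to 141972 to 149686 in PWS-IC del muscle and 146348 to 149453 in wild-type muscle. All 11 endothelial markers had negative differences (median -0.36), and limma called 0, with 4 at an unadjusted p below 0.05, and their sums were 3615 to 4918 in PWS-IC del muscle and 4796 to 6213 in wild-type muscle. Their part in the Cyfip2 difference was not tested.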

How the data were processed

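The authors deposited 1 linear intensity value for each probe set on each array, made with PLIER and the Affymetrix Expression Console per the submitters' processing notes. How the background was corrected and arrays were normalized is not given in the sources used here. Per the labels' protocols, Trizol RNA was copied into biotin-labelled cRNA. Groups came from the sample titles. The values held 0 missing entries, and 0 pairs of arrays were identical.

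Of 45101 probe sets, 64 controls were left out. The platform annotation, which can be old, gave 1 symbol to 34945, several to 932 and none to 9160. RefSeq GRCm38.p6 matched 34741 of those with 1 symbol and supplied chromosomes, gene order and promoters. The genome build behind the array values is not given in the sources used here.

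Values were taken as log2(intensity + 16) and fitted per contrast with limma 3.58.1 (lmFit, eBayes) under R 4.3.3, on the arrays of the 2 groups compared. P-values are 2-sided. The contrast between the muscle and brain effects used all 14 arrays. The fits were tested on simulated data. With 3 arrays against 4, the smallest p of an exact permutation test is 0.0286, and the number of arrays limits precision throughout.

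Members and lists were chosen with earlier results of these data known, and 1 further list is not reported here. Every member probe set was named. From the other lists, named genes were drawn from the up to 4 with the smallest p in a tissue. Likeness to Cyfip2 was ranked by r, 5 genes at each end, among genes at or above the 0.25 quantile of muscle means. Alternatives changed the pseudocount, scaling, filter, probe set choice, variance model, array weights, replicate block and arrays included.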

Additional observations from a re-analysis of the deposited data

Results flagged for a closer look

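In the 40 groups of 4 arrays examined, over the 20 probe sets in 2 tissues, 3 held an array whose gap to its nearest neighbour was large for the range of the group. Chance flags about 1 in 20 groups. Wild-type 2 had the highest muscle level of Cyfip2 1428347_at, 8.89, and the nearest array had 8.26. Without that array every wild-type level was still above the PWS-IC del arrays. Wild-type 4 had the highest brain level of Nckap1l 1428787_at, 7.15, and the nearest had 6.80. Wild-type 4 had the lowest muscle level of Abi1 1423178_at, 6.15, and the nearest had 6.32.

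The Cyfip2 effect was of unlike size in the 2 tissues, with a muscle effect minus brain effect of -1.83 on 1428347_at. Cyfip2 was chosen for its muscle values, so no test of this difference is given.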

How the results depend on the processing

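Under every alternative run, limma called 0 member probe sets in brain and 0 partner probe sets in muscle. The Cyfip2 1428347_at difference in muscle was -1.48 with a pseudocount of 64 and lay between -2.10 and -1.73 otherwise. The 1449273_at difference was -0.80 with a pseudocount of 64, and that of 1442167_at was -0.71 with a pseudocount of 1. Small differences that no setting called changed sign. In brain under median centring, Cyfip2 1428347_at was 0.0015, Nckap1 0.0215, Nckap1l 1428786_at 0.0354, Wasf1 0.0413 and Wasf2 1454673_at 0.0692. Array weights gave Wasf1 0.0937. Without wild-type 1 and 2, Cyfip2 1428347_at was 0.0360, Cyfip2 1449273_at 0.0832, Nckap1 0.0267, Wasf1 0.0742, Wasf3 1425061_at -0.121 and Abi2 1436984_at 0.0469. Leaving out 1 brain array gave ranges of -0.0846 to 0.0274 for Nckap1l 1428786_at, -0.117 to 0.0252 for Wasf1, -0.109 to 0.0804 for Wasf2 1454673_at, -0.0625 to 0.117 for Wasf3 1425061_at and -0.0136 to 0.110 for Brk1 1423188_a_at. In muscle, Wasf1 was -0.0182 with a pseudocount of 64, Abi1 1423177_a_at -0.0167 under quantile normalization and Brk1 1423188_a_at 0.0165 under centring. Array weights gave 0.0048 for Wasf2 1454673_at and 0.0275 for Brk1 1423188_a_at. Leaving out 1 muscle array gave -0.25 to 0.39 for Wasf1, -0.135 to 0.0073 for Wasf2 1454673_at, -0.0572 to 0.149 for Abi1 1423177_a_at and -0.0532 to 0.0405 for Brk1 1423188_a_at. The cause was not tested for any of these. In the tissue comparison, Cyfip2 1442167_at was 0.16 and not called under centring (adjusted p = 0.280).

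Counts over all probe sets moved more. Muscle had 29 calls, against 57 with a pseudocount of 64, 48 with the filter on low values, 16 with 1 probe set per gene, 78 with an intensity trend, 190 with array weights and 15 to 22 without 1 array, with a change of over 1.5 times for every array but PWS-IC del 3. Brain had 28, against 9 with 1 probe set per gene. The difference between tissue effects had 29, against 19 with a pseudocount of 1 and 12 with 1 probe set per gene. The tissue comparison had 31047, against 11268 with 1 probe set per gene, which left 8 member genes, all called. The replicate block gave 11 calls in brain, 11 in muscle and 30233 between the tissues. Equal replicate numbers were not taken to pair the samples, since the correlations of same-numbered deviations between genotypes ran from -0.309 to 0.303, and 0 of 6 brain and 2 of 6 muscle arrays correlated best with their own number. Across tissues, same-numbered correlations ran from -0.0027 to 0.0599 in wild-type and from 0.0571 to 0.168 in PWS-IC del samples, and 5 of 8 wild-type arrays correlated best with their own number. The labels do not say whether such samples share a mouse, and the tissue contrasts treat them as independent. Dim probe sets, such as Cyfip2 1442167_at and Wasf3 in muscle, lie near the floor of the scale, where a change is understated.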
